A study of Mus musculus with 4 samples.

Results

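Triglyceride carried in blood reaches adipocytes through a short chain of proteins, and 10 genes of that chain were followed in the open chromatin of mouse inguinal white adipose tissue (iWAT). Lpl, Gpihbp1 and Angptl4 act on lipoproteins at the vessel wall, Vldlr and Cd36 are receptors, Slc27a1, Fabp4 and Fabp5 move fatty acids, and Acsl1 and Acsl5 activate them. The 10 genes were named from this known pathway, with earlier results of these data known. They are 10 of the 17173 protein-coding genes with a peak on the gene body or the 2000 bases upstream, and 97 peaks count for them, from 1 peak at Gpihbp1 and Fabp5 to 34 at Cd36. At Acsl5, 4 of the 11 peaks also count for the overlapping gene Zdhhc6, so their counts are uncertain between both.

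iWAT of male C57BL/6 mice, 8 weeks old, was profiled by single-nucleus ATAC-seq with combinatorial indexing, in which a transposase marks accessible DNA in each nucleus. Mice were kept at room temperature (22 °C; day0RT), exposed to cold at 6.5 °C for 1, 3 or 7 days (day1C, day3C, day7C), or given CL-316,243 (CL), an agonist of the beta-3 adrenergic receptor, at 1 mg/kg for 1, 3 or 7 days at room temperature (day1CL, day3CL, day7CL). Each of the 7 groups held 3 mice, whole tissue was used without sorting, and no transgene or deletion was involved. A total of 32552 nuclei were annotated by the authors as 12 cell types.

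Lipoprotein lipase, made by the parenchymal cells of fat and muscle, crosses to the capillary lumen bound to GPIHBP1 and there releases fatty acids from chylomicrons and very low density lipoproteins. ANGPTL4 inactivates the lipase, and in white fat this control is known to follow feeding and fasting. The fatty acids pass endothelium and adipocyte membrane with the help of CD36 and FATP1 (Slc27a1), are carried in the cytosol by FABP4 and FABP5, and are trapped as acyl-CoA by long-chain acyl-CoA synthetases. Cold makes beige and brown fat take up more of this fuel.

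The deposited matrix held 189598 peaks and only values of 0 or 1, so a count here is a nucleus with a read in a peak. Counts over the peaks of a gene were summed per mouse and cell type and are given as counts on the gene in every 1000000 counts on genes (CPM). The 21 mice had 1111 to 2021 nuclei and 1340376 to 6916698 counts each. White and beige adipocyte nuclei summed gave 21 libraries of 29 to 933 nuclei, the smallest being day1CL replicate 1 with 29 nuclei. Vascular endothelial cells (VEC) gave 15 libraries of at least 10 nuclei from 351 nuclei in all, and macrophages gave 21 libraries from 1229 nuclei. Of all barcodes, 4218 occurred in more than 1 mouse, always in mice of the same treatment and mouse number on different days, and 21.5% of the nuclei paired by a barcode had the same cell type against 20.8% given by the makeup of those mice. Whether mice of different days were indexed in separate pools is not stated. The part of such pools in the differences between groups was not tested.

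The labels were set against marker genes, as CPM summed over each list. The 10 endothelial markers reached 1685 CPM in VEC and 419.9 CPM in adipocytes, the 10 macrophage markers 797 CPM in macrophages and 222 CPM in adipocytes, and the 8 adipocyte markers 2046 CPM in adipocytes, 756 CPM in VEC and 533 CPM in macrophages. The adipocyte list was thus open above the macrophage level in VEC, and its part in the VEC values below was not tested. The cluster labelled VSMC (vascular smooth muscle cells) went against its label, with 971 CPM for 5 skeletal muscle markers and 114 CPM for 4 smooth muscle markers, which reached 171 CPM in white adipocytes. It is therefore called by its label alone. Accessibility is not expression, and the authors formed the clusters from these same nuclei, so the tests between cell types below are not independent of the clustering.

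Gpihbp1 (ENSMUSG00000022579, chromosome 15 from 75596628 to 75599481, plus strand) was the member most open in VEC relative to the other cell types. Its only peak, chr15:75596371-75596662 in GRCm38 (mm10), covers the gene start on the plus strand, and the bases of the window around its centre that lie before the annotated transcript are shown because VEC had a higher share of nuclei with this peak open than any other annotated cell type. They stand 5′ to 3′ on the plus strand at chr15:75596367-75596627, from the reference genome of that build.
Gpihbp1: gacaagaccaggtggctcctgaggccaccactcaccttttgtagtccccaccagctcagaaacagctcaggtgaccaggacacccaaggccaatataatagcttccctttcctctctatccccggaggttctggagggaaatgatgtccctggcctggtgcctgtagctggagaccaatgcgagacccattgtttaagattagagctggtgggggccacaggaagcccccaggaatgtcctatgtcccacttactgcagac
None of the 6 motifs searched (given below) was found in these letters.

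The peak was open in 17 of 351 VEC nuclei, 4.84% (95% exact interval 2.85 to 7.64), from 8 mice. It was open in 12 of 5935 white adipocyte nuclei, 0.202% (0.104 to 0.353), although these were deeper, with a median of 2561 counts per nucleus against 1072 in VEC. In macrophages, of similar depth with a median of 1128 counts, it was open in 0 of 1229 nuclei, which allows a share of up to 0.300%. B cells, a type that should lack the gene, had 5 of 11967 nuclei, 0.0418%. Intervals and limits cover counting error only.

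Over all nuclei, Gpihbp1 reached 32.6 CPM in VEC and 0.574 CPM in adipocytes, a ratio of 56.9. Macrophages had 0 counts, and against a floor of 3 counts over all their nuclei the ratio was 18. This ratio takes no account of counting error and is not a lower limit. Only 7 of the 15 VEC libraries held a count, so their mean was 34.1 CPM ± 52.1 (SD, n = 15), and the gene did not pass the count filter of the tests below. By group the 17 counts were 1 in day0RT, 0 in day1C, 4 in day3C, 3 in day7C, 3 in day1CL, 5 in day3CL and 1 in day7CL, from 26 to 72 nuclei each. Differences of Gpihbp1 between groups were not tested, for lack of counts.

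**Figure D1:**
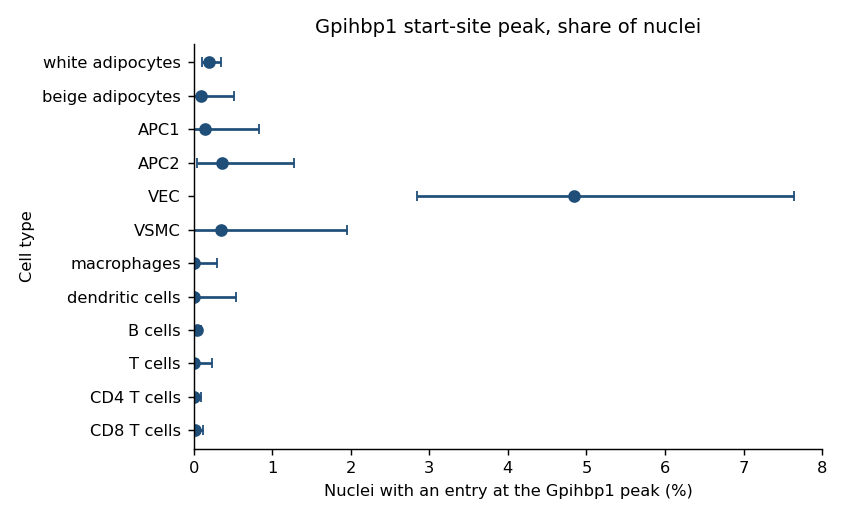
Share of nuclei, in percent, with the Gpihbp1 peak open in each annotated cell type. Points are all nuclei of a type and bars are exact 95% binomial intervals. VEC stand at 4.84%, with the interval from 2.85 to 7.64, while white adipocytes stand at 0.202%.

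Lpl (ENSMUSG00000015568, chromosome 8 from 68880491 to 68907448, plus strand), which encodes the lipase itself, was most open in adipocytes. It had 377 CPM ± 54.0 (SD, n = 21) in adipocytes, with the lowest mouse at 281 CPM, the median at 383 CPM and the highest at 471 CPM. VEC had 73.2 CPM ± 92.1 (SD, n = 15), from 0 to 267 CPM, and macrophages 40.9 CPM ± 40.0 (SD, n = 21), from 0 to 167 CPM. The adipocyte libraries lay above every VEC and every macrophage library.

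Tests between the 3 cell types used edgeR's quasi-likelihood test with the mouse in the model and Benjamini-Hochberg adjustment over 3397 genes, and 6 members passed the filter on low counts (Lpl, Cd36, Fabp4, Slc27a1, Angptl4 and Acsl1). A gene could pass through a single cell type, and these 6 had mean levels of 135 CPM or more in adipocytes, whereas the other 4 had 89.1 CPM or less there. A higher level in adipocytes was thus in part fixed by the filter, and the counts below describe the 6 and stand for no other member. Of these 6, 5 were higher in adipocytes than in VEC, where 63.1% of all genes tested were called in either direction and 37.2% were higher. All 6 were higher in adipocytes than in macrophages (85.2% of all genes called, 41.8% higher). Between VEC and macrophages 5 were called, 4 of them higher in VEC (48.5% of all genes called, 21.3% higher). The median log2 difference over all genes was 0.10 against VEC and −0.04 against macrophages. With so many genes differing between cell types, the counts alone say little about the pathway, and the sizes are given gene by gene.

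Lpl was higher in adipocytes than in VEC by 2.02 on the log2 scale (standard error 0.21, adjusted p = 4.07e-17), in 15 of 15 mice. Against macrophages the difference was 2.95 (standard error 0.15, adjusted p = 2.45e-47), in 21 of 21 mice. VEC exceeded macrophages by 0.93 (adjusted p = 0.00662), but only in 8 of 15 mice, and DESeq2 did not call it (adjusted p = 0.101).

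Angptl4 (ENSMUSG00000002289, chromosome 17 from 33773750 to 33781830, minus strand), the inhibitor of the lipase, was open at a similar level in both fat and vessel nuclei. It had 135 CPM ± 48.6 (SD, n = 21) in adipocytes, 149 CPM ± 91.4 (SD, n = 15) in VEC and 54.9 CPM ± 27.7 (SD, n = 21) in macrophages. The test between adipocytes and VEC gave a log2 difference of −0.22 (standard error 0.19, adjusted p = 0.298), with adipocytes higher in 6 of 15 mice. Both exceeded macrophages, adipocytes by 1.37 (adjusted p = 3.89e-17) in 20 of 21 mice and VEC by 1.59 (adjusted p = 5.97e-09) in 13 of 15.

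Cd36 (ENSMUSG00000002944, chromosome 5 from 17781690 to 17888801, minus strand), the scavenger receptor that takes up long-chain fatty acids, was open in adipocytes and VEC. It had 481 CPM ± 65.6 (SD, n = 21) in adipocytes, 342 CPM ± 211 (SD, n = 15) in VEC, which ranged from 105 to 823 CPM, and 158 CPM ± 59.2 (SD, n = 21) in macrophages. Adipocytes exceeded VEC by 0.53 on the log2 scale (standard error 0.14, adjusted p = 0.000674) in 11 of 15 mice, and the ranges overlapped. In nuclei with at least 2000 counts the difference was 0.21 (adjusted p = 0.584), and the call was also lost with libraries of at least 30 nuclei. VEC exceeded macrophages by 1.04 (adjusted p = 9.76e-08) and adipocytes did so by 1.57 (adjusted p = 2.3e-31).

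Fabp4 (ENSMUSG00000062515, chromosome 3 from 10204088 to 10208576, minus strand), the main fatty acid binding protein of adipocytes and also a gene of capillary endothelium, had a like pattern. It had 261 CPM ± 67.9 (SD, n = 21) in adipocytes, 172 CPM ± 108 (SD, n = 15) in VEC and 22.0 CPM ± 17.1 (SD, n = 21) in macrophages. Both exceeded macrophages widely, adipocytes by 3.41 (adjusted p = 7.22e-49) in 21 of 21 mice and VEC by 2.90 (adjusted p = 1.27e-19) in 13 of 15. Adipocytes and VEC differed by 0.51 (adjusted p = 0.0071) with overlapping ranges, a call lost with nuclei of at least 2000 counts (0.72, adjusted p = 0.0735) and with libraries of at least 30 nuclei. Per kb of peak, the Fabp4 start peak (chr3:10208211-10208850) had 100.4 pooled CPM in white adipocytes, 93.0 in VEC and 6.60 in macrophages.

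Slc27a1 (ENSMUSG00000031808, chromosome 8 from 71568882 to 71587302, plus strand), the insulin-responsive transport protein FATP1, was higher in adipocytes, with 181 CPM ± 30.9 (SD, n = 21), than in VEC, with 52.5 CPM ± 66.4 (SD, n = 15). The log2 difference was 2.03 (standard error 0.25, adjusted p = 7.25e-13), in 14 of 15 mice. Macrophages, with 112 CPM ± 24.4 (SD, n = 21), lay between them. They were below adipocytes by a log2 difference of 0.68 (adjusted p = 3.88e-08) and above VEC, the log2 difference of VEC against macrophages being −1.35 (adjusted p = 3.55e-05), a call lost in nuclei with at least 2000 counts (−1.25, adjusted p = 0.0767).

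Acsl1 (ENSMUSG00000018796, chromosome 8 from 46471037 to 46536051, plus strand), the synthetase that activates most long-chain fatty acids in fat, had 438 CPM ± 75.3 (SD, n = 21) in adipocytes. VEC had 63.2 CPM ± 45.3 (SD, n = 15) and macrophages 84.1 CPM ± 43.8 (SD, n = 21). The adipocyte libraries overlapped with neither, at log2 differences of 2.56 (adjusted p = 4.57e-25) and 2.20 (adjusted p = 4.31e-44). VEC and macrophages gave −0.36 (adjusted p = 0.29).

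Vldlr, Fabp5 and Acsl5 did not pass the count filter and were not tested between the 3 types. Vldlr (ENSMUSG00000024924, chromosome 19 from 27216484 to 27254231, plus strand), the receptor that binds triglyceride-rich lipoproteins beside the lipase, had 87.4 CPM ± 14.8 (SD, n = 21) in adipocytes, 26.2 CPM ± 39.5 (SD, n = 15) in VEC and 18.9 CPM ± 20.0 (SD, n = 21) in macrophages. Its highest level was in the cluster labelled VSMC, with 199 CPM ± 110 (SD, n = 10). Fabp5 (ENSMUSG00000027533, chromosome 3 from 10012548 to 10016607, plus strand), a binding protein shared by many cell types, stood at 37.7 CPM ± 12.9 (SD, n = 21) in adipocytes, 43.8 CPM ± 43.8 (SD, n = 15) in VEC and 36.7 CPM ± 19.6 (SD, n = 21) in macrophages. Acsl5 (ENSMUSG00000024981, chromosome 19 from 55251938 to 55297720, plus strand), a synthetase of mitochondria and endoplasmic reticulum, stood at 89.1 CPM ± 29.7 (SD, n = 21), 40.8 CPM ± 45.9 (SD, n = 15) and 87.6 CPM ± 33.7 (SD, n = 21) in the same order. The levels of Fabp5 in the 3 types lay within each other's spread.

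Across all 12 cell types the order differed between members. White adipocytes were first for Lpl, Fabp4, Slc27a1 and Acsl1, beige adipocytes for Cd36 and Acsl5, VEC for Gpihbp1 and Angptl4, T cells for Fabp5 and the cluster labelled VSMC for Vldlr. In each case the first and the second type differed by less than an SD of the larger spread. Per kb of peak, the pooled level in adipocytes was highest for Fabp4 (84.7 CPM), followed by Lpl (59.4 CPM) and Acsl1 (53.5 CPM), and lowest for Gpihbp1 (1.96 CPM). In VEC it was highest for Gpihbp1 (112 CPM), followed by Fabp4 (60.6 CPM) and Angptl4 (48.1 CPM).

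**Figure D2:**
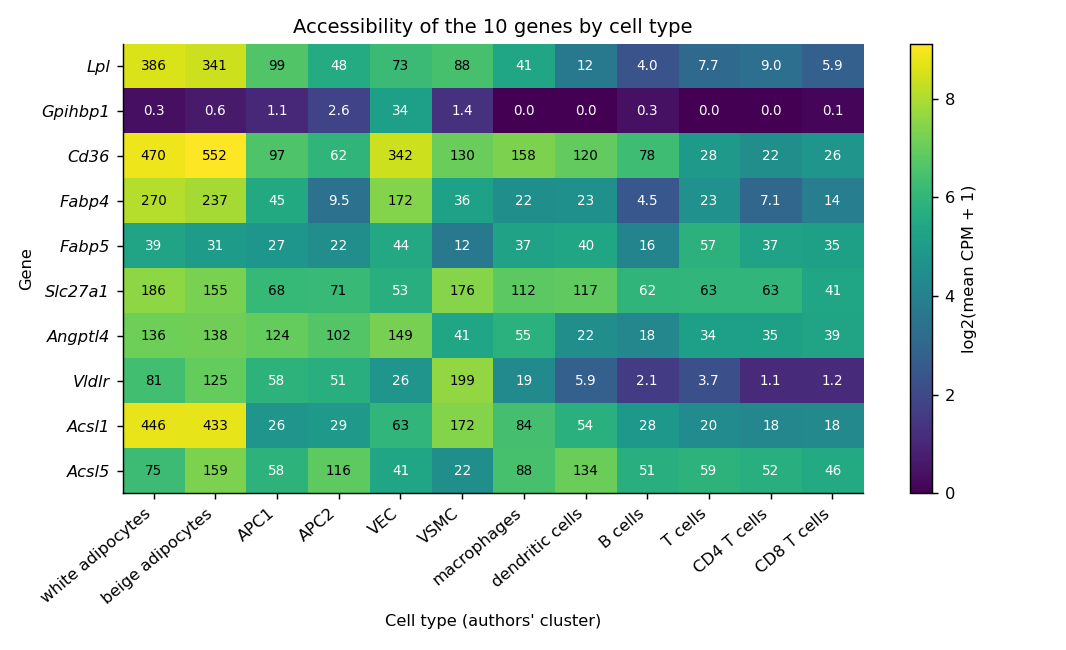
Heat map of the accessibility of the 10 genes (rows) in the 12 annotated cell types (columns), coloured by log2 of the mean CPM plus 1, with the mean CPM over libraries printed in each cell. Lpl and Acsl1 are brightest in white and beige adipocytes, Gpihbp1 stands at 34.1 CPM in VEC, and Angptl4 has like levels in adipocytes and VEC.

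Over the 12 cell types, the genes with the pattern most like Lpl were Fmo1 (Pearson's r of 0.961 on log2 of mean CPM plus 1), Ptprm (0.961) and Gm42906 (0.960), out of 3396 compared. Those most like Gpihbp1 were Frs3 (0.850), Sema6b (0.840) and Ltbp4 (0.838). These values describe 12 cell types that share mice and differ in depth.

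Beige and white adipocytes were compared within 19 mice, with the mouse in the model and 10701 genes tested, of which 30.5% were called, 15% higher and 15.5% lower in beige. Of the 10 members, 9 could be tested and 7 were called, 3 higher and 4 lower in beige adipocytes. The median of the 9 was −0.11 on the log2 scale, beside 0.01 over all genes.

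Acsl5 differed most. Over 19 mice its mean in beige nuclei was 159 CPM (SD 59.8) and in white nuclei 77.1 CPM (SD 18.1). The log2 difference was 1.00 with a standard error of 0.08 (adjusted p = 2.55e-19), and all 19 mice of 19 showed this direction. Vldlr followed with 125 CPM ± 40.5 and 82.3 CPM ± 12.9 (SD, n = 19 each), a log2 difference of 0.55 (standard error 0.08, adjusted p = 2.43e-08), in 18 of 19 mice. Both kept their calls in 30 of 30 alternative settings.

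The other called members moved little. Cd36 was higher in beige adipocytes by 0.20 (adjusted p = 0.00788, 14 of 19 mice), though not by DESeq2. Slc27a1 had −0.28 (adjusted p = 0.00147), Fabp5 −0.37 (adjusted p = 0.0295) and Fabp4 −0.20 (adjusted p = 0.0134), and they were higher in beige nuclei of only 3, 6 and 4 of 19 mice. The Fabp5 call was lost in 6 of 30 alternatives, with DESeq2 (adjusted p = 0.0726) and without day3C replicate 1 (0.0533), day3CL replicate 2 (0.127) or day7CL replicate 1 (0.129) among them. The Fabp4 call was lost in 3 alternatives, such as nuclei with at least 2000 counts (adjusted p = 0.105), and the Slc27a1 call with promoter peaks only. Lpl had −0.17 (adjusted p = 0.0468) and lost its call in 17 of 30 alternatives. Acsl1 (−0.11, adjusted p = 0.143) and Angptl4 (0.13, adjusted p = 0.255) did not pass.

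For the groups, white and beige nuclei of a mouse were summed, and each treated group was set against day0RT in an edgeR fit over all 21 mice and 14408 genes. Of the 9 members tested (all but Gpihbp1), 0 passed in day1C, 2 in day3C, 3 in day7C, 2 in day1CL, 2 in day3CL and 3 in day7CL. In day1C, 4 members had an unadjusted p under 0.05, beside 1435 of all 14408 genes. The share of all genes called was 0.34% in day1C, 1.67% in day3C, 5.02% in day7C, 2.58% in day1CL, 4.77% in day3CL and 7.73% in day7CL. The 6 comparisons share the same 3 control mice. The called members were Angptl4 and Fabp4, which fell, Acsl5, which rose, and Slc27a1, which fell in day1CL.

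Angptl4 was the member called in most comparisons. The day0RT mice had 249.8, 218 and 166 CPM. On day 1 of cold the mice had 218, 179 and 123 CPM, on day 3 they had 86.9, 114 and 131 CPM, and on day 7 they had 106, 97.5 and 86.7 CPM. All day3C and day7C mice lay below all day0RT mice, whereas day1C overlapped with them.

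With CL, Angptl4 stood at 123, 135 and 123 CPM on day 1, at 76.7, 115 and 129 CPM on day 3 and at 83.0, 93.7 and 172 CPM on day 7. The first 2 of these groups lay wholly below day0RT, and in day7CL only replicate 3 reached into its range.

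The log2 change from day0RT was −0.97 in day3C (standard error 0.16, adjusted p = 0.000134), −1.07 in day7C (0.17, adjusted p = 1.43e-05), −0.80 in day3CL (0.16, adjusted p = 0.000447) and −0.95 in day7CL (0.16, adjusted p = 3.7e-05). In day1C it was −0.18 (adjusted p = 0.779). In day1CL it was −0.71 (adjusted p = 0.0272), a call lost under 7 of 15 alternatives, among them the omission of day0RT replicate 1, day0RT replicate 2 or day1CL replicate 3.

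In white adipocyte nuclei alone the change was −0.99 in day3C, −1.02 in day7C, −0.79 in day3CL and −1.01 in day7CL, with adjusted p of 0.000123, 0.000455, 0.000609 and 2.94e-05. DESeq2 gave changes of like size, from −1.12 to −0.87 in these 4 groups, and called only day7C (adjusted p = 0.00712), the other 3 having adjusted p of 0.0547 to 0.0738. Without day0RT replicate 1, its highest mouse, the 4 changes ran from −0.92 to −0.65 and all passed in edgeR.

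Fabp4 also fell. The day0RT mice had 369, 320.1 and 269.7 CPM, the day3C mice 204, 171 and 248 CPM, and the day7C mice 241, 199.6 and 192 CPM. No mouse of day3C or day7C reached the lowest day0RT mouse. The changes were −0.59 in day3C (adjusted p = 0.00623) and −0.57 in day7C (adjusted p = 0.00294), both lost without day0RT replicate 1 (adjusted p = 0.0991 and 0.0668) and with promoter peaks only (adjusted p = 0.129 and 0.0767). The day3C call was also lost without day3C replicate 1 (adjusted p = 0.0582). The day7C change was −0.47 in white nuclei alone (adjusted p = 0.0589).

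In CL, Fabp4 passed on day 7, with 224, 217 and 261 CPM (−0.43, adjusted p = 0.0233), a call lost in 7 of 15 alternatives. On days 1 and 3 of CL it had −0.40 (adjusted p = 0.144) and −0.26 (adjusted p = 0.247). The 8 adipocyte markers summed to 2095 to 2419 CPM in day0RT, 1795 to 1986 CPM in day7C and 1865 to 2121 CPM in day7CL, and their part in the lower Fabp4 and Angptl4 values was not tested.

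Acsl5 moved the other way. It had 65.5, 42.2 and 68.3 CPM in day0RT and 178, 126 and 112 CPM in day7C, and all day7C mice lay above day0RT. The change was 1.11 (standard error 0.17, adjusted p = 6.83e-06), and DESeq2 called it as well (1.17, adjusted p = 0.000107). In white nuclei alone it was 0.57 (adjusted p = 0.103), with 41.0 to 63.2 CPM in day0RT and 75.65 to 111.9 CPM in day7C, without overlap. Beige nuclei, in which Acsl5 was more open, made up 9.22% ± 2.62 (SD, n = 3) of adipocyte nuclei in day0RT and 29.4% ± 3.20 (SD, n = 3) in day7C. The part of the beige share in the rise was not tested.

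With CL, Acsl5 reached 114, 99.0 and 90.3 CPM on day 3 (0.64, adjusted p = 0.0159) and 107, 92.7 and 87.0 CPM on day 7 (0.66, adjusted p = 0.00954). Both groups lay above day0RT. White nuclei alone gave 0.62 (adjusted p = 0.0182) and 0.62 (adjusted p = 0.0187), while DESeq2 gave adjusted p of 0.066 and 0.0797. The day 3 call was lost without any one of the day0RT mice or day3CL replicate 2, and the day 7 call without day0RT replicate 2 or day7CL replicate 1. The beige share was 12.8% ± 7.06 in day3CL and 20.1% ± 4.85 in day7CL (SD, n = 3 each), and its part in these changes was not tested.

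Slc27a1 had 227, 172 and 186 CPM in day0RT and 164, 129 and 133 CPM in day1CL, without overlap (−0.56, adjusted p = 0.0405). The first day1CL value rests on 8 counts, and the call was lost in 8 of 15 alternatives, including the omission of day0RT replicate 1, day0RT replicate 3, day1CL replicate 2 or day1CL replicate 3. In the other 5 groups its change lay between −0.23 and 0.07.

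Lpl, Cd36, Vldlr, Fabp5 and Acsl1 passed in none of the 6 comparisons with edgeR. Lpl had 418, 281 and 304 CPM in day0RT and 412, 457 and 425 CPM in day1C, and its 6 changes ran from 0.05 to 0.34. Cd36 had 481, 436 and 418 CPM in day0RT and 595.5, 588.5 and 489.8 CPM in day1C, without overlap, and its changes ran from 0.01 to 0.33. Acsl1 ran from −0.17 to 0.34, Vldlr from −0.39 to −0.07, and Fabp5 from 0.03 to 0.51. Without passing, Acsl1 in day1C and Fabp5 in day1C and day3CL lay wholly above day0RT. Vldlr in day1C, day3C and day1CL and Acsl1 in day3CL lay wholly below it. For some of these members the fitted change and the group means had opposite signs. Fabp5 in day1CL had 0.32, with means of 24.4 CPM against 32.0 CPM in day0RT. Vldlr in day7CL had −0.09, with 98.6 CPM against 96.5 CPM. Acsl1 in day1CL had −0.08, with 467.6 CPM against 434.1 CPM, and Cd36 in day3CL had 0.01, with 433.0 CPM against 445.1 CPM. The lowest adjusted p among these 30 values was 0.131, for Fabp5 in day3CL.

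**Figure D3:**
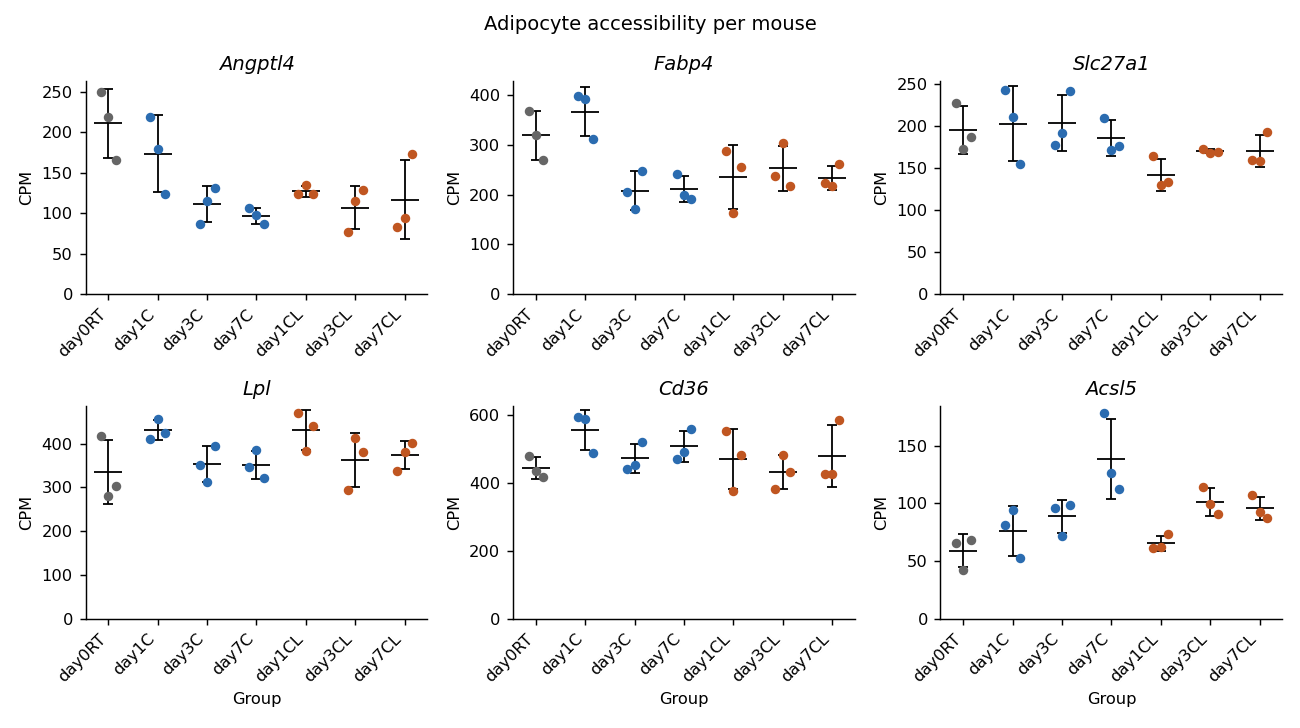
Accessibility in adipocytes, in CPM, of Angptl4, Fabp4, Slc27a1, Lpl, Cd36 and Acsl5 in the 7 groups. Each point is a mouse, horizontal lines are means of 3 mice and whiskers span 1 SD on each side. Angptl4 lies at 166 to 249.8 CPM in day0RT and at 86.7 to 106 CPM in day7C, Acsl5 lies at no more than 68.3 CPM in day0RT and at 112 CPM or more in day7C, and Lpl and Cd36 overlap between day0RT and day7C.

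CL and cold were compared day by day. On day 1, where 0.916% of all genes were called and 0.458% were lower, 2 members were lower in CL, Fabp4 by a log2 difference of −0.63 (standard error 0.15, adjusted p = 0.0132) and Slc27a1 by −0.63 (standard error 0.16, adjusted p = 0.0249). Fabp4 had 287, 163 and 255 CPM in day1CL and 398, 392 and 311 CPM in day1C, without overlap. Slc27a1 had 242, 211 and 155 CPM in day1C, so that 1 day1CL mouse reached into its range. The 8 adipocyte markers summed to 1763 to 2036 CPM in day1CL and 2393 to 2572 CPM in day1C, without overlap, and their part in these differences was not tested. Neither call held in DESeq2, nor without day1C replicate 1, day1CL replicate 2 or day1CL replicate 3. On day 3 (1.46% of all genes called) and day 7 (0.111%), 0 members passed with edgeR and 0 with DESeq2. At an unadjusted p under 0.05 in edgeR there were 3 and 1 members, beside 1739 and 1226 of all 14408 genes. Acsl5 on day 7 had −0.45 (adjusted p = 0.167), with all day7CL mice below all day7C mice.

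In macrophages, Cd36, Slc27a1 and Acsl1 had enough counts, and 0 of these 3 passed in any of the 6 comparisons with day0RT by edgeR or DESeq2. Over 3549 genes, 0.0845% were called in day1CL and none in the other 5, with 134 to 303 genes at an unadjusted p under 0.05. Cd36 in day1CL came nearest, with 121, 177 and 370.3 CPM against 102, 115.5 and 165 CPM in day0RT (1.06, adjusted p = 0.0597). Only replicate 3 of day1CL stood far above day0RT. Without it the change was 0.22 (adjusted p = 0.929).

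In VEC the groups could hardly be compared, because 1 day0RT library held at least 10 nuclei. With libraries of at least 5 nuclei, 3 of day0RT and 17 of treated mice, 199 genes had enough counts and 0 were called (12 at an unadjusted p under 0.05). Cd36, the only member among them, gave 1.18 for treated against day0RT (standard error 0.58, adjusted p = 0.714), from 3 counts over 26 day0RT nuclei, and DESeq2 was not run on it. Lpl had 1 count in day0RT, 0 in day1C, 12 in day3C, 3 in day7C, 16 in day1CL, 12 in day3CL and 7 in day7CL.

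The 97 peaks were then tested one at a time in adipocytes. Of them, 76 had enough counts, and 0 were called in day1C (21 at an unadjusted p under 0.05), 5 in day3C, 9 in day7C, 0 in day1CL (13 at an unadjusted p under 0.05), 5 in day3CL and 8 in day7CL. The shares called over all 47835 peaks, at the adjusted threshold, were 0.213%, 1.28%, 3.13%, 2.06%, 3.46% and 4.19% in the same order. The share of all peaks at an unadjusted p under 0.05 was not counted, so the 21 and 13 cannot be read as a result about the members. Over genes, 1435 and 2185 of 14408 lay under 0.05 in day1C and day1CL. DESeq2 called 0 of the member peaks in each of the 6 comparisons, but it gave no adjusted p for 9 of the edgeR calls, among them those of both Angptl4 peaks at the 3′ end in day3C and day7CL, so these were not tested there. All positions are in mm10 and are those of the authors' peaks.

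The Angptl4 change was spread over the gene, on the minus strand of chromosome 17. Of its 5 peaks, 4 fell in both day7C and day7CL. The largest changes were at its 3′ end, 7678 and 7243 bases after the gene start. There chr17:33773946-33774358 changed by −1.98 in day3C, −1.92 in day7C, −1.35 in day3CL and −1.69 in day7CL (adjusted p from 0.000108 to 0.00525). These calls held in all 6 omissions of a mouse in day3C and day7C, and were lost in day3CL without day0RT replicate 1 or day3CL replicate 2 and in day7CL without day7CL replicate 1.

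That 3′ peak had 36.9, 28.1 and 16.2 CPM in day0RT and 7.5, 3.00 and 4.77 CPM in day7C, which rest on 8 to 18 and 2 to 7 counts. A peak could pass the count filter through day0RT alone. With so few counts in day7C, a fall may in part be fixed by the filter. The neighbouring chr17:33774409-33774766 changed by −2.0, −1.85 and −1.55 in day3C, day7C and day7CL (adjusted p from 0.000108 to 0.00229) and by −1.01 in day3CL (adjusted p = 0.0553). Its day3C call was lost without day3C replicate 1 and its day7CL call without day7CL replicate 1. Both lie in the 3′ UTR.

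The peak next to the Angptl4 start, chr17:33780437-33781815, covers coding exon and intron and changed less, by −0.78, −0.87, −0.64 and −0.81 in day3C, day7C, day3CL and day7CL (adjusted p from 0.00232 to 0.0181). An intronic peak, chr17:33779139-33779984, changed by −0.72 in day7C and −0.73 in day7CL (adjusted p = 0.017 and 0.00678). Of 6 omissions of a mouse, 3, 1, 3 and 2 lost the calls of the peak next to the start, in the order above, and 4 and 2 those of the intronic peak, with day0RT replicate 1 among them each time.

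At Acsl5, on the plus strand of chromosome 19, 2 of the 11 peaks had a called rise. How much of the rise of the gene lay in its other peaks was not tested. A peak could pass the count filter through treated groups alone. These 2 peaks had few counts in day0RT, so a rise was in part fixed by the filter. The 300 bases at the centres of these 2 peaks are shown because they held the largest called increases among the member peaks. The first, chr19:55250042-55250775, is centred at −1530 bases relative to the gene start, and its central window is chr19:55250259-55250558. The second, chr19:55257488-55257984, is intronic, 5798 bases after the start, with its window at chr19:55257587-55257886. Both are on the plus strand of GRCm38, 5′ to 3′.
Acsl5 upstream: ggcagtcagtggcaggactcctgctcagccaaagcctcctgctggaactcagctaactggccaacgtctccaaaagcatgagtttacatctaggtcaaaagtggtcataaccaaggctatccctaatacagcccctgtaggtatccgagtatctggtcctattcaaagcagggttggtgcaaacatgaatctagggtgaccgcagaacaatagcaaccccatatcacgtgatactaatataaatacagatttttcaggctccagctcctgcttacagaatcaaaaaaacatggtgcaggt
Acsl5 intron: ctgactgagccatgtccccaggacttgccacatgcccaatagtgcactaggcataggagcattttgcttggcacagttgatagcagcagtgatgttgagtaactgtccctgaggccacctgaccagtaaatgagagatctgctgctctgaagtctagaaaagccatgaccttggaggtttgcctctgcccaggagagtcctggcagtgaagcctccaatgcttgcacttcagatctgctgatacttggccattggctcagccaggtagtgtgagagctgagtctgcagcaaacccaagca
Neither window holds any of the 6 motifs.

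The Acsl5 upstream peak changed by 1.90 in day7C (standard error 0.39, adjusted p = 0.000697), 1.45 in day3CL (adjusted p = 0.0129) and 1.33 in day7CL (adjusted p = 0.0281). The day7CL call held in only 1 of 9 alternatives and was lost without any one of the day0RT mice, day7CL replicate 1 or day7CL replicate 3. The day3CL call was lost without day0RT replicate 1, day0RT replicate 3 or day3CL replicate 2, and the day7C call without day7C replicate 1. It had 2.05, 3.52 and 6.94 CPM in day0RT, from 1 to 6 counts, and 35.3, 18 and 17.5 CPM in day7C. The intronic peak changed by 1.91 in day7C (adjusted p = 0.00504) and 1.46 in day7CL (adjusted p = 0.0366), from 1 to 3 counts per day0RT mouse. Among the 4 omissions in which it was tested in day7C, its call was lost without day0RT replicate 3. In day7CL it was tested in 6 omissions, and its call was lost without day0RT replicate 2, day0RT replicate 3 or day7CL replicate 1. Over all nuclei the upstream peak had 48.2 CPM per kb in beige and 14.5 in white adipocytes, and the intronic peak 63.9 and 13.0. In VEC they had 1 count each.

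Cd36 as a gene did not pass, but its intronic peak chr5:17862944-17864059, 25300 bases after the gene start on the minus strand, did. Its central window, chr5:17863352-17863651, is shown in plus strand letters of GRCm38 since it was a rise at a single peak of a gene that otherwise did not pass.
Cd36 intron: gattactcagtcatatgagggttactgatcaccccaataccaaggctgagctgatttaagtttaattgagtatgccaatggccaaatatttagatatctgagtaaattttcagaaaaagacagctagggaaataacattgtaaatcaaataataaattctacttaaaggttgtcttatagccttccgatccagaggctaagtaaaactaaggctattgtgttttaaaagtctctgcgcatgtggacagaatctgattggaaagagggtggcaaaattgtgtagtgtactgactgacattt
It holds none of the 6 motifs. The peak had 12.3, 14.1 and 19.7 CPM in day0RT, 31.7, 44.2 and 29.1 CPM in day3C, 30.0, 42.0 and 36.6 CPM in day7C and 28.5, 37.1 and 27.5 CPM in day3CL. These 3 groups lay wholly above day0RT, with changes of 0.92, 1.02 and 0.94 (adjusted p = 0.0398, 0.0168 and 0.0181), each lost without some single mice, in 5, 4 and 4 of 6 omissions. It had 27.7 CPM per kb in white and 25.4 in beige adipocytes and 1 count in VEC.

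Fabp4, on the minus strand of chromosome 3, fell at the intronic peak chr3:10207331-10207885, 968 bases after its start, by −0.91 in day3C, −0.69 in day7C and −0.66 in day7CL (adjusted p = 0.000804, 0.0195 and 0.0131). The neighbouring chr3:10206748-10207209 changed by −0.82 in day7C (adjusted p = 0.0136). Of 6 omissions of a mouse, 1, 4 and 3 lost the calls of the first peak in this order and 3 that of the second, the omission of day0RT replicate 1 losing all but the day3C call. The peak at the Fabp4 start was called in no group. At Lpl, chr8:68906363-68907838 at the 3′ end rose by 0.69 in day3CL (adjusted p = 0.00612), and at Slc27a1 the start peak chr8:71568310-71569063, which also counts for Nxnl1, changed by −0.76 in day7CL (adjusted p = 0.00824). The Lpl call was lost without day0RT replicate 2, day0RT replicate 3 or day3CL replicate 2, and the Slc27a1 call without day0RT replicate 1 or day7CL replicate 1.

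**Figure D4:**
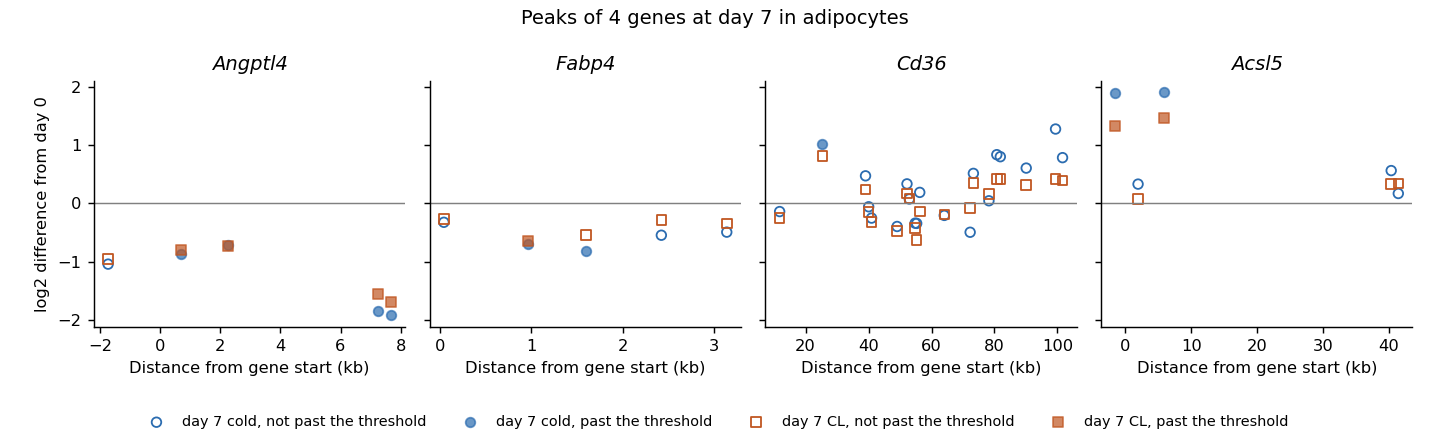
Log2 change of the tested peaks of Angptl4, Fabp4, Cd36 and Acsl5 in adipocytes of day7C and day7CL against day0RT, by distance of the peak centre from the gene start in kb. Circles are day7C, squares are day7CL, and filled symbols are called peaks. The 2 Angptl4 peaks over 7 kb from the start lie between −1.92 and −1.55, and the 2 called Acsl5 peaks between 1.33 and 1.91.

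Between beige and white adipocytes 26 member peaks had enough counts and 6 were called, where 16% of all 11161 peaks tested were, 7.48% higher and 8.48% lower. These counts describe the 26 and stand for no other member peak. The 2 Acsl5 peaks shown above, more open per kb in beige than in white adipocytes, were not among the 6. The Vldlr start peak chr19:27216725-27219273 was higher in beige adipocytes by 0.45 (adjusted p = 0.000147). The other 5 were lower, 2 at Lpl (chr8:68898859-68899563 with −0.40 and the 3′ end with −0.27) and 1 each at Fabp4 (−0.45), Fabp5 (the start peak, −0.41) and Acsl1 (intronic, −0.42). The Lpl peak at the 3′ end lost its call in 9 of 24 alternatives, each the omission of a single mouse. The other Lpl peak and the Fabp5 peak lost theirs in 2 omissions each, that of day3CL replicate 2 being common to both, and the Acsl1 peak lost its call without day7CL replicate 1. The Lpl start peak did not differ detectably (−0.01, adjusted p = 0.986). In the fits of adipocytes, VEC and macrophages only 41 peaks of the whole series passed the count filter, none of them at a member.

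Consensus letters of 6 factor families were searched on both strands in the 300 bases at the centre of every peak. The C/EBP palindrome TTGCGCAA stood in none of the 97 member windows and in 0.139% of all 189598 windows. The glucocorticoid receptor consensus, the EBF consensus and the estrogen-related receptor letters TCAAGGTCA stood in 1 member window each, with 1.02%, 1.50% and 0.632% of all windows. The PPAR and RXR direct repeat (0.742% of all windows) and the NFI palindrome (0.068%) stood in none. A match describes letters only, and its absence says nothing of a factor.

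Other genes of the pathway were taken as 6 lists, chosen with earlier results of these data known. In adipocytes of the groups, the 18 genes of lipase processing and regulation had 17 tested, of which 1 rose and 1 fell in day7C and 3 rose and 1 fell in day7CL, beside 5.02% and 7.73% of all genes called in these comparisons. Sel1l, which helps the lipase leave the endoplasmic reticulum, rose by 0.89 (adjusted p = 0.037) in day7C and 0.96 (adjusted p = 0.0104) in day7CL. Cidec, a lipid droplet protein, fell by 0.57 on the log2 scale (adjusted p = 0.0015) in day7C. The list's median was −0.09 and −0.07, beside −0.01 over all genes in both.

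Of 8 other acyl-CoA synthetases, 2 rose in day7C (5.02% of all genes called) and 1 in day7CL (7.73%), none fell, and the list's median was 0.44 and 0.34. Acss1 and Acss2, which activate acetate, rose by 0.79 (adjusted p = 0.00548) and 0.72 (adjusted p = 0.00238) in day7C, and Acss2 rose by 1.08 (adjusted p = 9.75e-07) in day3CL. Of 12 lipoprotein and scavenger receptors 10 were tested, with 1 higher in day7C (Lrp8, 0.82, adjusted p = 0.0341) and 1 higher and 1 lower in day7CL. Of 5 other fatty acid transport proteins 0 passed in either group.

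Of 9 other binding proteins 4 were tested, with 0 called in day7C and 1, Dbi, lower in day7CL (−0.50, adjusted p = 0.012). Of 14 regulators of endothelial transport and caveolae 12 were tested, with 1 lower in day7C and 1 higher and 1 lower in day7CL. Cavin1, a coat protein of caveolae, was the lower one in both (−0.70, adjusted p = 0.0007, and −0.78, adjusted p = 8.83e-05), and Pparg was the higher one (0.44, adjusted p = 0.0025).

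Between beige and white adipocytes, the largest differences of the lists were in Slc27a2, a transport protein of peroxisomes (1.85, adjusted p = 1.44e-22), Fabp3, the binding protein of heart and muscle (1.61, adjusted p = 1.35e-18), Acss1 (1.23, adjusted p = 1.03e-21) and Stab2 (−1.22, adjusted p = 3.53e-13). Of the 44 list genes tested there, 9 were higher and 6 lower, a share near the 30.5% of all genes called in that comparison.

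Of the caveolae and endothelial list, 7 genes were tested between the 3 cell types. In VEC against macrophages 6 were higher and 0 lower, with a median of 2.36 (48.5% of all genes called, 21.3% higher). In adipocytes against macrophages 5 were higher and 0 lower, with a median of 2.24 (85.2% of all genes called, 41.8% higher). In adipocytes against VEC 2 were higher and 2 lower, with a median of −0.17 (63.1% of all genes called). Cavin2 and Cavin1 exceeded macrophages both in VEC (3.94, adjusted p = 7.74e-28, and 3.56, adjusted p = 2.45e-30) and in adipocytes (3.59, adjusted p = 3.84e-41, and 3.14, adjusted p = 2.39e-42). Between adipocytes and VEC, Flt1, the endothelial receptor of VEGFB, was lower in adipocytes (−2.88, adjusted p = 7.26e-36) and Pparg was higher (0.91, adjusted p = 5.21e-09).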

How the data were processed

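Nuclei of iWAT from 21 mice were sequenced by single-nucleus ATAC-seq in pooled lanes, so the mouse, group and cell type of each nucleus came from the deposited cell annotation. The authors aligned reads to mm10 with Bowtie2, used SAMtools, called peaks with MACS2, removed doublets with Scrublet, clustered with Signac and deposited a matrix of counts per peak and nucleus. The deposited values are whole-number counts without normalization, all 0 or 1.

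Counts were summed over the peaks on a gene body or within 2000 bases upstream, per mouse and cell type, keeping libraries of at least 10 nuclei (3.38% of all peaks count for more than 1 gene). CPM is relative to all counts on genes. Depth per mouse is given in the report, and shallow libraries give wide errors. Genes were filtered with edgeR's filterByExpr (minimum count 10, minimum total 15, proportion 0.7), scaled by TMM and tested two-sided with glmQLFit and glmQLFTest (prior count 2 for log2 values). The threshold was an adjusted p of 0.05 (Benjamini-Hochberg over all features tested). Standard errors were not fitted directly. They are the size of the log2 value divided by the square root of the test's F statistic. Cell types were compared with the mouse as a block, and groups in 1 fit over all 21 mice without a batch term. The authors report 3 batches run independently without naming the mice of each. The part of these batches in the values was not tested. Nothing says that mice came from separate litters, so p-values measure the spread between these mice. Floors were 3 counts and intervals exact at 95%.

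The members and lists were chosen with earlier results of these data known. By the naming rule the text names all 10 members, list genes with the largest called changes, and for Lpl and Gpihbp1 the 3 genes of most alike pattern. Alternatives were DESeq2, RLE factors, no filter, promoter peaks only, the gene body plus 10000 bases, nuclei with at least 2000 counts, libraries of at least 5 or 30 nuclei, white nuclei only, only the groups compared, a replicate block and the omission of each mouse with all its libraries. The scripts were tested on simulated counts. Sequences are from the GRCm38 reference. Versions were R 4.3.3, edgeR 4.0.16, limma 3.58.1, DESeq2 1.42.0, the package data.table in version 1.17.8, Python 3.11.15, pandas 2.3.3, numpy 2.4.6, scipy 1.17.1 and matplotlib 3.10.9. Expression data and protein sequences were not used here.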

Additional observations from a re-analysis of the deposited data

Results flagged for a closer look

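In the cluster labelled VSMC, the highest of 10 libraries stood apart from the other libraries for 5 members, by a gap that took up most of the range. The highest values were 14.41 CPM for Gpihbp1, which rests on 1 count, 180.6 CPM for Fabp4, 555.1 CPM for Slc27a1, 475.8 CPM for Vldlr and 451.5 CPM for Acsl1. The rule's chance rate of about 1 in 20 groups need not hold for counts this sparse. For Gpihbp1, 9 of the 10 libraries had no count, so a single count in the remaining library is always marked. The cluster holds 283 nuclei in all, and no test between groups was made in it.

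Between the treatments, the change in adipocytes on day 1 differed between CL and cold by edgeR's quasi-likelihood test of the difference itself. It was −0.63 on the log2 scale for Fabp4 (adjusted p = 0.0132) and −0.63 for Slc27a1 (adjusted p = 0.0249), and neither passed in DESeq2.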

How the results depend on the processing

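No member changed direction with a call on either side under any alternative. Values of single genes and single peaks were counted where any setting gave a call. Under alternatives other than omissions, 452 stayed on their side of the threshold, 87 lost a call and 20 gained one. Under omission of a mouse the counts were 1151, 117 and 29. With DESeq2 the number of members called was 4 in beige against white (7 in edgeR), 1 in day3C (2), 0 in day1CL (2), 0 in day3CL (2), 0 in day7CL (3) and 0 on day 1 of CL against cold (2), and the number of peaks was 0 in day3C (5), day7C (9), day3CL (5) and day7CL (8), where DESeq2 gave no adjusted p for 9 of these calls. Over all genes edgeR and DESeq2 called 49 and 9 in day1C, 240 and 53 in day3C, 724 and 299 in day7C, 372 and 145 in day1CL, 687 and 175 in day3CL, 1114 and 234 in day7CL, and 132 and 11, 210 and 17, and 16 and 0 for CL against cold on days 1, 3 and 7. The median log2 difference over all genes moved from 0.10 to 0.34 with DESeq2 for adipocytes against VEC, from −0.04 to 0.08 against macrophages and from −0.10 to −0.22 for VEC against macrophages. Promoter peaks alone gave 3 members for adipocytes against VEC (5), 4 in beige against white (7), 1 in day3C, 0 in day1CL, 1 in day3CL, 1 in day7CL and 0 on day 1 of CL against cold, and over all genes 164 (2144), 294 (2894), 95 (1648) and 753 (3260) for the cell type fits and 0, 29, 97, 78, 108, 128, 32, 70 and 0 for the others, in the order above. Nuclei with at least 2000 counts gave 0 members in day1CL, 1 on day 1 of CL against cold and 1 in macrophages of day1CL (0). White nuclei alone gave 1 in day7C (3) and 0 in day1CL. Without the count filter, 8 members were called for adipocytes against VEC, 1 in macrophages of day1CL, and 88, 89 and 19 peaks in the 3 cell type comparisons (0 each), 42 in beige against white (6), 2 in day3C, 3 in day3CL and 2 in day7CL; over all genes it gave 6627, 10687, 4281 and 4176 in the cell type fits. On simulated counts the unfiltered fits of adipocytes, VEC and macrophages, and that of beige and white peaks, made far more false calls than the threshold allows, so their counts carry no weight. Omitting 1 mouse gave 5 to 8 members in beige against white, 0 to 1 in day1C, 1 to 2 in day3C, 2 to 3 in day7C, 0 to 2 in day1CL, 1 to 2 in day3CL, 1 to 3 in day7CL, 0 to 4, 0 to 1 and 0 to 1 for CL against cold on days 1, 3 and 7, and 0 to 1 in macrophages of day1CL. For peaks it gave 3 to 7 in beige against white, 1 to 7 in day3C, 4 to 8 in day7C, 0 to 1 in day1CL, 0 to 6 in day3CL and 0 to 9 in day7CL. For the deeper nuclei, the white nuclei and the omissions, the calls over all genes and peaks are not given here. Fewer member calls there cannot be told from fewer calls in all. The replicate numbers did not pair the mice (correlation of deviations −0.123 to 0.117 over 63 same-number pairs), and a replicate block changed 1 call of a member, Acsl5 on day 7 of CL against cold (−0.51, adjusted p = 0.0394), giving 1 member there (0). Among peaks, the block lost the Cd36 intronic peak in day3C and day3CL and both Acsl5 peaks in day7CL (adjusted p from 0.0503 to 0.085), and it added an intronic peak of Fabp4 in day3C and of Angptl4 in day3CL. In the cell type fits, the group in place of the mouse as a term, with no replicate block, gave 5, 6, 5 and 5 members (5, 6, 5 and 7), the calls lost being Lpl and Fabp4 in beige against white. Low depth limited Gpihbp1, VEC and the smallest adipocyte library.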
